A study of Caenorhabditis elegans with 2 samples.

Results

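The snoRNA genes described here are those that stand outside protein-coding genes in Caenorhabditis elegans. They were taken from the RefSeq annotation of assembly WBcel235 (WormBase release WS298), as genes of biotype snoRNA whose interval does not lie wholly within that of any nuclear protein-coding gene. The rule kept 133 of 346 annotated snoRNA genes, and the other 213 lay inside a protein-coding gene. The rule reads the annotation alone. The measurement was chromatin immunoprecipitation and sequencing (ChIP-seq) with an antibody named for RPC-1, which is the largest of the RNA polymerase III subunits, in whole young adult worms of the wild-type strain N2, obtained from the CGC, with males and females pooled. There was 1 group with 2 biological replicates and no mutant or treatment, so both replicates are shown throughout and no test between conditions exists. Whole animals were used, so a peak cannot be placed in a tissue.

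Small nucleolar RNAs guide the chemical modification of ribosomal and spliceosomal RNA. Box C/D snoRNAs direct ribose methylation and box H/ACA snoRNAs direct pseudouridylation, each within a particle of conserved core proteins. RNA polymerase III makes tRNA, 5S rRNA, U6 snRNA and other short RNAs, ends transcription at runs of T, and at tRNA genes is recruited through an A box and a B box that lie inside the transcribed gene. A snoRNA gene within a host gene can be released from the host's transcript, while one outside may have a promoter of its own. The question here is which of the genes outside the polymerase occupied.

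Most of the strongest occupied genes carried tRNA-like promoter letters just before the annotated snoRNA. The stretches below run from 100 bases upstream of the 5' end to base 20 of the gene, 5' to 3' on the gene's strand, and were read from the RefSeq genome WBcel235, which equals build ce11. They are the genes among the 10 with the highest peak signal whose sequence is shown here, because the positions of the boxes and of the summits described later refer to them. Capitals mark letters of the A box (the tRNA A box consensus, 11 or 12 bases) and, closer to the gene, of the B box, as GGTTCNANNCC, its core GTTCNANNC or its first letters GGTTCNA. The core lies within the full B box and the first letters open it, so these matches overlap. A stretch with 1 block of capitals matched the B box alone, and K02C4.8 matched neither on this strand.
F32E10.10 (chrIV:7574022-7574141, plus strand): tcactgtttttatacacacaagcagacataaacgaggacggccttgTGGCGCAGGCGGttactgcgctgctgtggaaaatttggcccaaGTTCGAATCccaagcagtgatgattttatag
F30H5.4 (chrIII:502704-502823, plus strand): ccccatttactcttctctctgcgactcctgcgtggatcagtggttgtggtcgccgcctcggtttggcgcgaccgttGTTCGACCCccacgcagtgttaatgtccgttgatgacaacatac
T06C12.16 (chrV:15873907-15874026, minus strand): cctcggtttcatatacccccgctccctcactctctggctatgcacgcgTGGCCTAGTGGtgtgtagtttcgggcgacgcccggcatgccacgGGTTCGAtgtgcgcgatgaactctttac
F12F6.11 (chrIV:11549845-11549964, minus strand): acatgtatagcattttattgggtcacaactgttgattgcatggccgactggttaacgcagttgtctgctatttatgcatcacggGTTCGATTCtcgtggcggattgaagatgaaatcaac
K02C4.8 (chrII:8075409-8075528, plus strand): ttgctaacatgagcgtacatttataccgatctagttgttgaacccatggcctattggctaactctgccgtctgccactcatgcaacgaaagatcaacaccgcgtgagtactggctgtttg
Y75B12B.12 (chrV:15191074-15191193, minus strand): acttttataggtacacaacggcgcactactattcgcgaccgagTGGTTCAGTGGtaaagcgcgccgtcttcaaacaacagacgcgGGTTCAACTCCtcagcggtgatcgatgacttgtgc
T10B9.11 (chrII:9774815-9774934, minus strand): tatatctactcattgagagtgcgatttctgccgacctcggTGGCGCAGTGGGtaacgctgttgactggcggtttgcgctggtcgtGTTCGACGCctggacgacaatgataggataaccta

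A peak of the authors' thresholded list overlapped 27 of the 133 genes (20.3%), against 3.82% of all 46890 annotated nuclear genes. The snoRNA genes nested in protein-coding genes had a peak in 42 of 213 cases (19.7%), so the shares inside and outside host genes lay within 1 percentage point of each other. For scale, 566 of 612 nuclear tRNA genes (92.5%) had one. The 27 genes lay under 27 separate peak intervals with a median width of 445 bp (243 to 790). They were spread over the 6 nuclear chromosomes, with 6 of 30 members occupied on chromosome I, 6 of 28 on II, 2 of 11 on III, 4 of 23 on IV, 3 of 17 on V and 6 of 24 on X.

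Each replicate gave nearly the same count on its own. Among the 1320 strongest regions of replicate 1, the number in the thresholded list, 25 members had a region (18.8%, against 3.8% of all nuclear genes). Among the 1320 strongest of replicate 2, 26 had one (19.5%, against 3.77%). Of the 27 genes with a thresholded peak, 22 were in that upper part of both replicates' lists. The full relaxed lists, which keep weak regions and background, met many more genes of any kind. They met 62 members in replicate 1 (46.6%, against 34.8% of all nuclear genes), 68 in replicate 2 (51.1%, against 34.3%) and 61 in the pooled list (45.9%, against 27.5%). Among the 106 members without a thresholded peak these shares were 34.9% in replicate 1, 38.7% in replicate 2 and 32.1% in the pooled list, near the share of all genes.

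Most occupied genes had a strong signal and a few a weak one. Signal is the authors' own value for each peak and was compared only within a list. In the thresholded list it ran from 35.6 to 1269 over 1320 peaks with a median of 145, and at the 27 genes from 35.8 to 956 with a median of 615. A signal above 200, a cut placed in a gap between the values after they were seen, was found at 23 of them. Of the 27, 22 were among the 200 strongest peaks and 15 among the 100 strongest, with a median rank of 85. The 42 nested genes with a peak had a median signal of 401 and a median rank of 282.

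F32E10.10 (WBGene00044947, chromosome IV, 7574122 to 7574191, plus strand) had the highest signal, 956, at rank 10 of the thresholded list. It ranked 9 of 30000 in replicate 1 (signal 320) and 11 of 30000 in replicate 2 (signal 637), so both replicates placed it near the top. T02E1.9 (WBGene00045156, chromosome I, 8224474 to 8224544, plus strand) followed with 837, and ranked 21 in replicate 1 (279) and 24 in replicate 2 (559). This gene overlaps spe-12 in part. F30H5.4 (WBGene00023020, chromosome III, 502804 to 502889, plus strand) had a signal of 824, with rank 55 in replicate 1 (231) and 16 in replicate 2 (597). T06C12.16 (WBGene00045140, chromosome V, 15873855 to 15873926, minus strand) had 814, with ranks 34 (254) and 23 (562). T19B4.8 (WBGene00044930, chromosome I, 5707046 to 5707119, plus strand) and F12F6.11 (WBGene00077461, chromosome IV, 11549793 to 11549864, minus strand) both stood at 785. The former ranked 40 in replicate 1 (249) and 30 in replicate 2 (531), and the latter 27 (269) and 35 (515).

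The other 4 of the 10 strongest also ranked high in both replicates. K02C4.8 (WBGene00045157, chromosome II, 8075509 to 8075643, plus strand) had a signal of 766, with rank 58 in replicate 1 (230) and 28 in replicate 2 (537). ZK265.10 (WBGene00045150, chromosome I, 8259437 to 8259498, minus strand) had 737, with ranks 46 (239) and 39 (500). Y75B12B.12 (WBGene00045129, chromosome V, 15190976 to 15191093, minus strand) had 722, with ranks 36 (252) and 55 (465). T10B9.11 (WBGene00045147, chromosome II, 9774764 to 9774834, minus strand) had 675, with ranks 65 (221) and 59 (458). All 10 were thus among the 65 strongest regions of each replicate. These genes are named in the annotation by sequence name only, and no target RNA is given there.

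A further 12 genes had signals from 475 to 644. In falling order they were H09I01.2 (644), C41C4.11 (634), T27A3.9 (623), Y53F4B.48 (615), C53B7.8 (599), C46C2.8 (547), Y23H5B.10 (541), W03C9.9 (536), Y39G10AR.24 (505), W01C9.6 (488), ZK643.9 (480) and M163.14 (475). T27A3.9 overlaps T27A3.8 in part, and W01C9.6 overlaps glb-27 in part. M163.14 differed between the replicates, at rank 2320 in replicate 1 (signal 13.1) and 156 in replicate 2 (340), and the tRNA gene M163.t2 lies within 500 bp of it. The remaining 5 genes were weaker. K09E9.5 (264) met no region in replicate 1 and ranked 472 in replicate 2 (180). C33E10.11 (105) ranked 756 in replicate 1 (35.5) and 763 in replicate 2 (69.8). Y59E1B.14 (44.9) ranked 1394 and 1053, and the tRNA pseudogene Y59E1B.t1 overlaps its 5' end. C16D9.10 (36.6) ranked 1066 in replicate 1 (20.2) and 9342 in replicate 2 (5.6), with the tRNA gene C16D9.t4 within 500 bp. T09B9.10 (35.8), close to the lowest signal of the thresholded list, met no region in replicate 1 and ranked 1143 in replicate 2 (29.4).

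**Figure D1:**
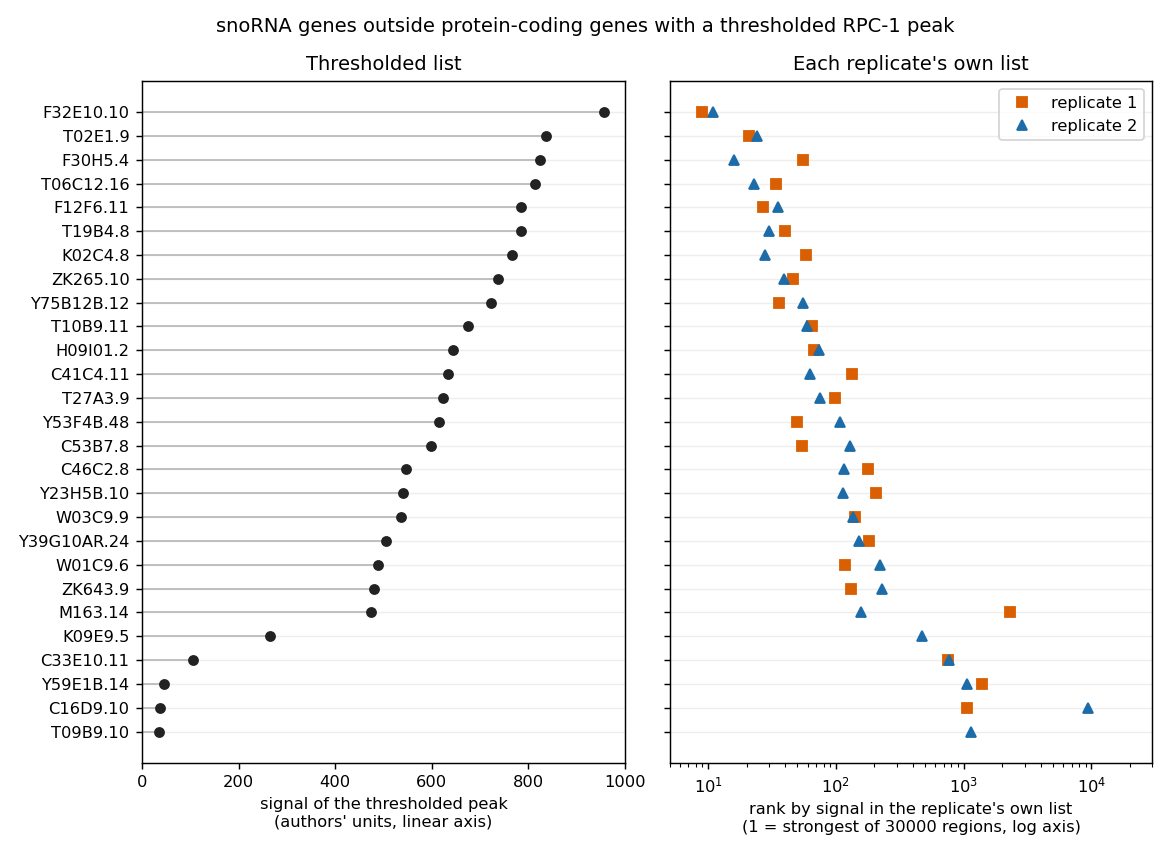
Signal of the thresholded peak (left, authors' units, linear axis) and rank by signal in each replicate's own list of 30000 regions (right, log axis; squares for replicate 1, triangles for replicate 2) at the 27 snoRNA genes with a peak, strongest at the top. The ranks of both replicates run close together except at M163.14 and C16D9.10, and K09E9.5 and T09B9.10 have no square because they met no region in replicate 1.

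Some of these genes had other transcription units close by. Of the 27 genes, 2 had a known polymerase III gene within 500 bp (M163.14 and C16D9.10), 3 had a tRNA gene or tRNA pseudogene there (with Y59E1B.14), and none had another snoRNA gene there. A noncoding RNA gene on the opposite strand overlapped 6 of the 27 (T19B4.8, H09I01.2, C41C4.11, Y53F4B.48, Y23H5B.10 and Y39G10AR.24) and 3 of the 106 without a peak. ChIP-seq has no strand, so at those 6 the polymerase on the snoRNA gene and on the antisense gene cannot be told apart.

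The summits lay just upstream of the annotated snoRNA. Measured along the gene's strand from the 5' end, the median summit was at -30 bp (-70 to 422) over the 27 genes. In 21 of them it lay upstream, all within 100 bp of the 5' end, in 4 it lay inside the gene, and in 2 beyond the 3' end. The 4 inside were F30H5.4 (14 bp), K02C4.8 (21 bp), ZK643.9 (9 bp) and C33E10.11 (95 bp). The 2 beyond were M163.14 (422 bp) and C16D9.10 (259 bp), both beside a tRNA gene. In the nested genes with a peak, 25 of 42 summits lay upstream, with a median of -21 bp.

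Both replicates placed the summit alike. At the 25 genes with a region in each list, the 2 summits differed by a median of 14 bp, and by at most 25 bp in 21. For F32E10.10 the summit was at -45 bp in the thresholded list, -43 bp in replicate 1 and -44 bp in replicate 2. For ZK265.10 it was at -60 bp in all 3. For T06C12.16 it was at -30, -52 and -29 bp, and for K02C4.8 at 21, -20 and 21 bp, so that here replicate 1 moved it across the 5' end. The largest difference, 553 bp, was at M163.14, whose summit was at -78 bp in replicate 1 and 475 bp in replicate 2.

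**Figure D2:**
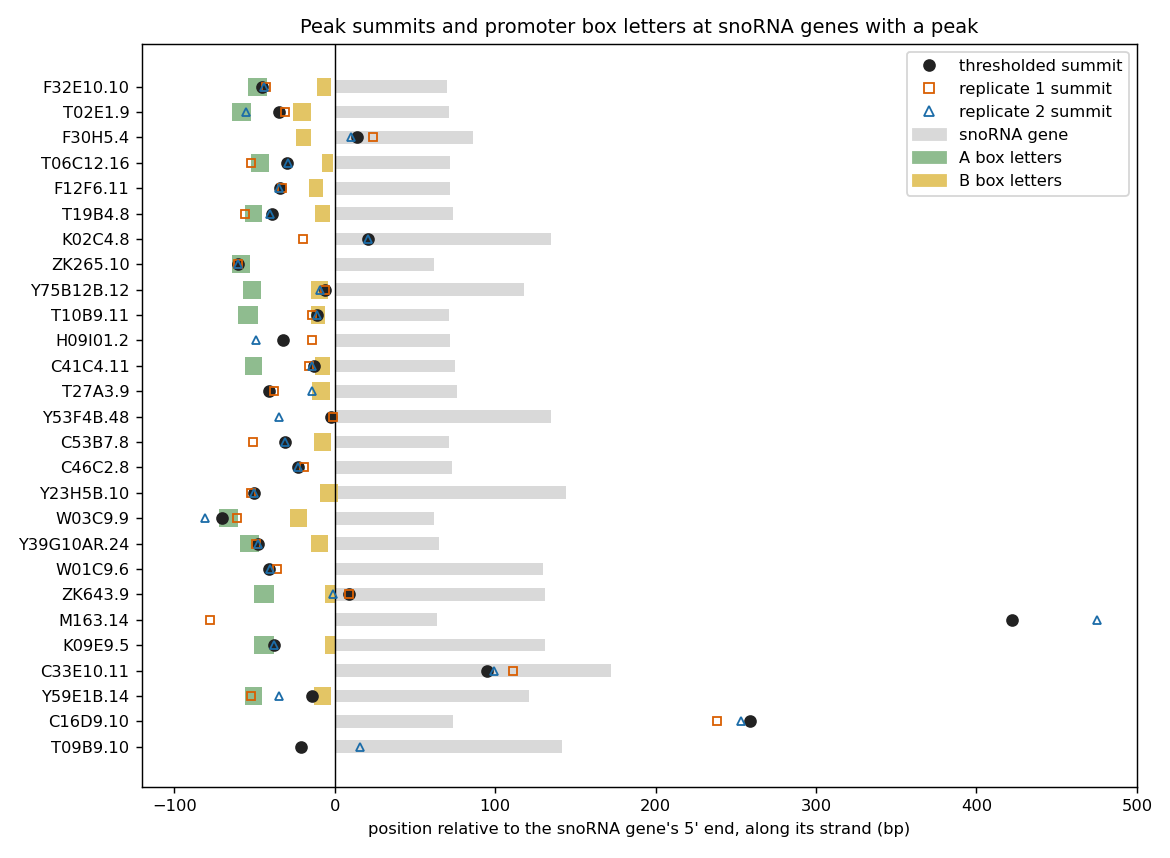
Position of the peak summit relative to the 5' end of each of the 27 occupied snoRNA genes (bp along the gene's strand), in the thresholded list (filled circles) and in each replicate's own list (open squares and triangles), with the gene in grey and the sense-strand A box and B box letters in green and yellow. The summit sits on or between the boxes drawn at 12 of the 27 genes, 21 of 27 summits lie upstream of the 5' end, and those of M163.14 and C16D9.10 lie far downstream.

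Every one of the 27 summits lay nearer to the snoRNA 5' end than to any protein-coding 5' end. The median distance was 34 bp to the former and 1300 bp to the latter. The peaks were taken because they overlapped the snoRNA gene, so this order was largely set by that choice. Only 2 of the summits came within 250 bp of the nearest protein-coding start, those of Y75B12B.12 (197 bp, from Y75B12B.11 on the opposite strand) and K02C4.8 (230 bp, from K02C4.2). Measured from the snoRNA gene itself, the nearest protein-coding 5' end was a median of 1289 bp away (203 to 16177) with a peak and 1710 bp away (4 to 24415) without one. It was within 500 bp for 4 of 27 and 19 of 106.

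The A box and B box letters were concentrated in the occupied genes. Within 150 bp upstream, on either strand, the A box letters of 12 bases were found in 8 of 27 occupied genes (29.6%), in 1 of 106 without a peak (0.943%) and in 1.82% of the 45932 nuclear genes that are neither snoRNA nor tRNA genes. With 11 bases also accepted, a setting chosen after seeing the data, these figures were 14 of 27 (51.9%), 2 of 106 (1.89%) and 2.98%. The full B box letters were found in 7 of 27 (25.9%), 1 of 106 (0.943%) and 0.218%, and the core letters in 13 of 27 (48.1%), 4 of 106 (3.77%) and 4.03%. The nested genes showed the same split, with A box letters of either length in 26 of 42 with a peak (61.9%) and 11 of 171 without (6.43%). B core letters were in 15 of 42 (35.7%) and 7 of 171 (4.09%), and full B box letters in 5 of 42 (11.9%) and 1 of 171 (0.585%). The letters TATAAA on the sense strand, by contrast, were found in 5 of 27 (18.5%), 10 of 106 (9.43%) and 14.9% of the other nuclear genes. Among the genes occupied in the list without replicate 2, 3 held them.

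Where both boxes were found they kept a fixed arrangement. With the 12-base A box and the full B box, both on the sense strand upstream, 3 of 27 occupied genes (T02E1.9, W03C9.9 and Y39G10AR.24) and 0 of 106 without a peak held both. With looser letters chosen after seeing the data (an A box of 11 or 12 bases, and the full, core or first letters of the B box, with the first 20 bases of the gene included), both were located in 12 of 27 and in 0 of 106. The positions that follow are those of the 12. The A box began at a median of -56 (-72 to -50) and the B box at -12.5 (-28 to -6), with 44 bases between their starts (38 to 45). The summit lay between the start of the A box and the end of the B box in 11 of the 12, the exception being ZK643.9. These genes were F32E10.10, T02E1.9, T06C12.16, T19B4.8, Y75B12B.12, T10B9.11, C41C4.11, W03C9.9, Y39G10AR.24, ZK643.9, K09E9.5 and Y59E1B.14. At Y59E1B.14 both boxes lie inside the tRNA pseudogene that overlaps its 5' end. Another 5 occupied genes had B box letters alone (F30H5.4, F12F6.11, T27A3.9, C53B7.8 and Y23H5B.10), and ZK265.10 had A box letters alone. In the other 9 these letters were not found on the sense strand, and among those are K02C4.8, H09I01.2, Y53F4B.48, C46C2.8 and W01C9.6, with signals from 488 to 766. Without a peak, 5 of 106 had B box letters alone and 101 had neither.

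**Figure D3:**
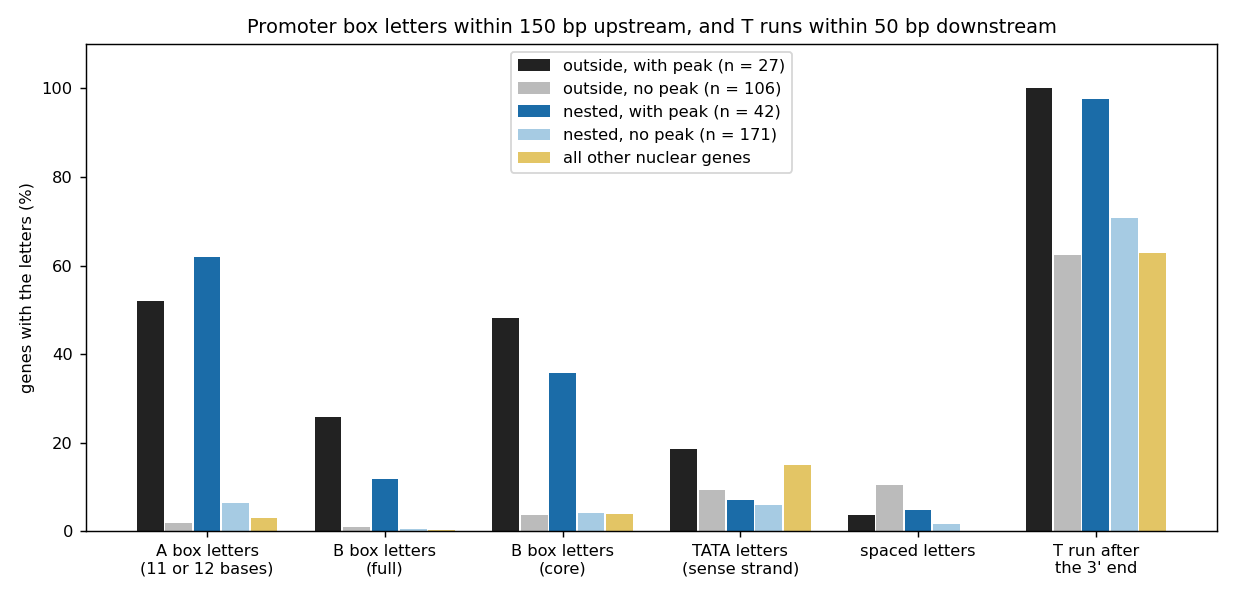
Share of genes (%) with each set of promoter letters in the 150 bp upstream of the 5' end, and with a run of T at or within 50 bp after the 3' end, for snoRNA genes outside and nested in protein-coding genes, with and without a peak, and for the 45932 nuclear genes that are neither snoRNA nor tRNA genes. A box and B box core bars are tall in both sets with a peak (51.9% and 61.9% for the A box), and the full B box bars are lower (25.9% and 11.9%). The bar for the spaced letters, described later in the text, is tallest in members without a peak (10.4%), where those letters were noticed.

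Pairs of similar genes showed how the upstream stretch varied while the snoRNA was kept. ZK643.9 and K09E9.5 were 94.7% identical over the gene and 69.2% over the 100 bp upstream, and had signals of 480 and 264. Their A box and B box letters stood at the same positions, -50 and -6. C46C2.8 and C53B7.8 were 94.5% identical over the gene and 66.4% upstream, with signals of 547 and 599. Full B box letters were found at C53B7.8 alone, although C46C2.8 held them with 1 mismatch allowed. The 4 stretches are printed in the same frame as above, from 100 bases upstream to base 20, with box letters in capitals. K09E9.5 met no region in replicate 1, and 92.4% of the 32-base words around it and around ZK643.9 were unique in the genome.
ZK643.9 (chrIII:8937667-8937786, plus strand): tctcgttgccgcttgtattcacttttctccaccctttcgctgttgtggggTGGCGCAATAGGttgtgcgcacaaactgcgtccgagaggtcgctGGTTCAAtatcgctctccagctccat
K09E9.5 (chrX:15619391-15619510, plus strand): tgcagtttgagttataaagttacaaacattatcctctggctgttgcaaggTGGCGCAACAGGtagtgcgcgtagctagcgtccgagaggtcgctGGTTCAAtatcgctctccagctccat
C46C2.8 (chrIV:9191314-9191433, minus strand): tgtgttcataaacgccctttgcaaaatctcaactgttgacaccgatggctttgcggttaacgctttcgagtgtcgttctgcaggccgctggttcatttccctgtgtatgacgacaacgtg
C53B7.8 (chrX:6867838-6867957, plus strand): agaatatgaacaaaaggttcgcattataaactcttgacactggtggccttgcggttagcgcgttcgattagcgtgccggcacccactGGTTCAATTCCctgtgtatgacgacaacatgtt

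The 106 genes without a thresholded peak had low pooled signal where they met a region at all. In the pooled list, 34 of them met one, with a median signal of 13.3 and a highest value of 27.9. The lowest value at an occupied gene was 35.8, at T09B9.10. Occupied genes had the same signal and rank in the pooled list as in the thresholded one. The lowest signal of the thresholded list was 35.6, so this order was largely set by the threshold and is no separate result. Within single replicates the groups overlapped. The 5 highest were Y53F4B.47 (27.9), F09G2.14 (24.3), C26C6.13 (23.9), C14E2.12 (22.4) and Y74C9A.6 (21.7). Y53F4B.47 ranked 1265 in replicate 1 (17.1) and 1403 in replicate 2, ahead of the occupied Y59E1B.14 (16.1) and M163.14 (13.1) in replicate 1 and of C16D9.10 (5.6) in replicate 2, with the pooled summit 200 bp downstream of its 5' end. F09G2.14 ranked 1223 in replicate 1 (17.6), also ahead of both, and met no region in replicate 2. C14E2.12 ranked 5100 in replicate 1 (10.3) and 3514 in replicate 2 (9.22). Y74C9A.6 met no region in replicate 1 and ranked 1757 in replicate 2 (15.3). Largely repeated sequence was rare among the 106, with 6 genes under 50% unique 32-base words and 0 of the 27 occupied genes. At least 90% were unique at 88 of the 106 and 25 of the 27, with a lowest value of 55.5% at the occupied C33E10.11. The 1 member without a peak that held full B box letters, T27A8.9, had 14.9%. Whether repeats kept a peak from being called there was not tested. The upstream stretches of 3 of these genes are shown for comparison with the occupied ones, in the same frame, and hold no capitals because neither set of box letters was found in them.
Y53F4B.47 (chrII:15025874-15025993, minus strand): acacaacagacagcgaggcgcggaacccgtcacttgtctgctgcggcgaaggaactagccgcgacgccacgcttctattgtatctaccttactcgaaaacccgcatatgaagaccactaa
F09G2.14 (chrV:7196561-7196680, minus strand): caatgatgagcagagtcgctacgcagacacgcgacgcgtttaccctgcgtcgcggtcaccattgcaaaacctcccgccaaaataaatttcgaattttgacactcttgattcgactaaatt
C14E2.12 (chrX:1831743-1831862, minus strand): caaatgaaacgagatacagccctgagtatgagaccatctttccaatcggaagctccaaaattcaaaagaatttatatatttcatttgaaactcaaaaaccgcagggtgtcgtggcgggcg

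A different set of upstream letters recurred among the genes without a peak. The letters GGAAC and TGTCGG, 8 bases apart, were noticed in their upstream sequence and then counted on both strands within 150 bp. They were found in 11 of 106 members without a peak (10.4%) and in 1 of 27 with one (3.7%). In the other nuclear genes the share was 0.0827%, and in annotated snRNA genes it was 13 of 129 (10.1%). The snRNA genes include those of U6, and which polymerase transcribes the genes with these letters was not tested. The 12 members were Y74C9A.6, F59C6.15, F25H2.15, F47G4.9, W07G1.23, W03B1.17, T08B6.64, T26A8.6, Y67A10A.14, F43A11.8, the gene WBGene00220222 and the occupied C16D9.10. In all 12 the letters began between -75 and -59, about where the A box began in the genes with both tRNA-like boxes. The peak at C16D9.10 had its summit 259 bp downstream, beside the tRNA gene C16D9.t4. Among the nested genes the order was reversed, with the letters in 3 of 171 without a peak (1.75%) and 2 of 42 with one (4.76%). The letters were picked from the members without a peak, so their higher share there is no independent result.

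Some of these 12 genes are copies of each other. F25H2.15, F59C6.15, Y67A10A.14 and F43A11.8 were 84.9 to 97.1% identical, T08B6.64 and T26A8.6 85.7%, and WBGene00220222 and WBGene00220176, of which the latter held the letters only when 300 bp upstream were searched, 95.5%, so the 12 are not independent occurrences. Over the 100 bp upstream, identity was 58.1 to 82.7% within the first family, 53.4% for the second pair and 86.1% for the third. The stretches below show 1 gene from each of the first 2 families, W07G1.23 and W03B1.17, which have no copy among the members at 80% identity or more, and the occupied C16D9.10. Capitals mark the spaced letters.
Y67A10A.14 (chrIV:14327102-14327221, minus strand): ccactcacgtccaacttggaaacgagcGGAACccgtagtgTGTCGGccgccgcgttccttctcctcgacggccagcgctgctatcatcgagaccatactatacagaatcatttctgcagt
T26A8.6 (chrIV:8428720-8428839, minus strand): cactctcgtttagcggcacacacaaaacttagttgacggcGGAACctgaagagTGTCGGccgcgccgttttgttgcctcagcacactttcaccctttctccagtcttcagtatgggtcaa
W07G1.23 (chrII:13946846-13946965, plus strand): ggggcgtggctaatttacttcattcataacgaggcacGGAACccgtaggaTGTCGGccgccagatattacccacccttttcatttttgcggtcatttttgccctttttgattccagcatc
W03B1.17 (chrIV:4347532-4347651, plus strand): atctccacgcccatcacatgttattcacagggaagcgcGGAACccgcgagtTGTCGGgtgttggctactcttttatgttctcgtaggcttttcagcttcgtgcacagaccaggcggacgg
C16D9.10 (chrV:8247942-8248061, minus strand): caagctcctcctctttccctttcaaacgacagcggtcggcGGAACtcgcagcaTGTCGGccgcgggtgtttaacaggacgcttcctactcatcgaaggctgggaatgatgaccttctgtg

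Occupied genes were shorter and had GC-richer upstream sequence. Their median length was 74 bp (62 to 172), against 156 bp (65 to 344) without a peak. Of the 34 members shorter than 100 bp, 17 had a peak (50%), and of the 99 of 100 bp or longer, 10 had one (10.1%). The median GC content of the 100 bp upstream was 53% (33 to 69%) with a peak and 44.5% (23 to 67%) without. In the nested genes the median length was 122 bp with a peak and 128 bp without, while upstream GC content was 55% and 40%. WormBase gene numbers above 200000, a division noticed after the values were seen, were carried by 94 of the 106 and 3 of the 27. Upstream GC contents at the other 12 without a peak were 34, 39, 52, 54, 54, 56, 57, 58, 60, 63, 65 and 67%. Most of these exceeded the occupied median of 53%, so the higher GC content was not seen among low-numbered members. Lengths of the 12 were 65, 72, 76, 80, 80, 87, 126, 163, 171, 173, 174 and 178 bp. The part of GC content in the box counts was not tested.

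**Figure D4:**
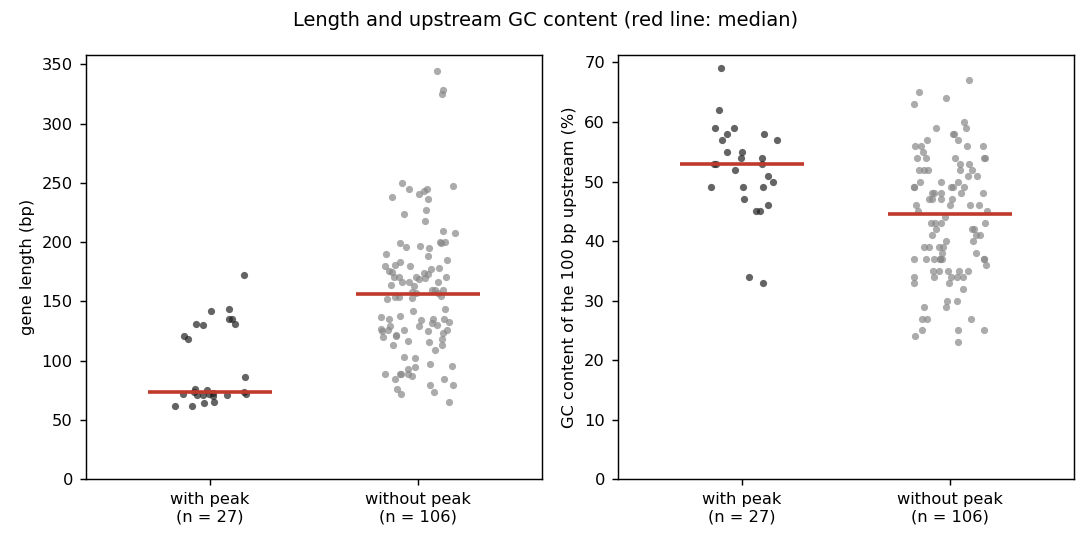
Gene length (bp, left) and GC content of the 100 bp upstream of the 5' end (%, right) of the 27 members with a thresholded peak and the 106 without, 1 point per gene, with sideways scatter for visibility and the median as a red line. The occupied genes gather below 100 bp (median 74 bp, against 156 bp) and around a median GC content of 53%, against 44.5%. Of the 106 without a peak, 94 carry WormBase gene numbers above 200000, against 3 of the 27.

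Runs of T followed most occupied genes closely. The letters TTTT occurred within 50 bp after the 3' end in 27 of 27 occupied genes, in 66 of 106 without a peak (62.3%) and in 62.8% of the other nuclear genes. A run that began in the last bases of the gene was also counted, at a distance of 0 bp. The median distance from the 3' end to the run was 0 bp in the 27 and 12.5 bp in the 66. The farthest run among the 27 lay 44 bp away, at F30H5.4. The nested genes gave 41 of 42 with a peak (97.6%) and 121 of 171 without (70.8%).

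Letters of the snoRNA classes were checked in the genes themselves. The D box letters CTGA, which stand near the 3' end of box C/D snoRNAs, were in the last 25 bases of 17 of 27 occupied genes (63%) and 15 of 106 without a peak (14.2%), against 6.93% of nuclear genes that are not snoRNA genes. The letters TGATGA, the core of the C box near the 5' end, were in the first 25 bases of 5 of 27 (18.5%) and 3 of 106 (2.83%), against 0.924%. The letters ACA within the last 8 bases, in genes without both C and D letters, were in 8 of 27 (29.6%) and 16 of 106 (15.1%), against 9.12% of other nuclear genes, in which that condition was not applied. At least 1 of these was found in 22 of 27 occupied genes and 30 of 106 without a peak. The class of most genes without a peak could therefore not be read from these letters. Among members with WormBase gene numbers up to 200000, CTGA was held by most of the 24 occupied genes. It was also held by most of the 12 without a peak, so it did not separate the 2 sets there. TGATGA was held by C18A3.12 and Y74C9A.6 of the 12, and the ACA letters were not found at the 12. F30H5.4 and K02C4.8 are printed whole, as the strongest occupied gene with both C and D letters and the strongest with ACA, with those letters in capitals.
F30H5.4 (chrIII:502804-502889, plus strand): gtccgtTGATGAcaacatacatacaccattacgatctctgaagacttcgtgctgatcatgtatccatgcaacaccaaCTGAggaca
K02C4.8 (chrII:8075509-8075643, plus strand): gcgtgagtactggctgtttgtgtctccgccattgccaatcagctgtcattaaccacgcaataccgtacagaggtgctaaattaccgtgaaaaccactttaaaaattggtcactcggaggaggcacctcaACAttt

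The protein side of the same particles was without thresholded peaks. The list held the box C/D core proteins fib-1 (fibrillarin, the methyltransferase), nol-56 and nol-58, the RNA-binding protein snu-13, and the H/ACA core proteins dkc-1 (the pseudouridine synthase dyskerin), Y48A6B.3, garr-1 and nola-3. A thresholded peak lay within 250 bp of the 5' end of 0 of these 8 genes, against 1.8% of all 19971 protein-coding genes, and at so low a share 0 of 8 is no result about the list. In the pooled relaxed list 7 of the 8 met a region, against 22.7% of all protein-coding 5' ends in the same window. Their signals ran from 9.21 at nol-56 to 31.8 at snu-13, and garr-1 met no region. All were below the thresholded minimum of 35.6, which largely follows from their having no thresholded peak. The gene rpc-1, which codes for the immunoprecipitated subunit, met neither a thresholded peak nor a pooled region there.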

How the data were processed

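Peak lists were the data used. The authors deposited narrowPeak lists on build ce11 whose column 7 holds a signal per peak. The submitters' list of files gives the origin of each: a relaxed list per replicate, called against a control, a pooled relaxed list from both, and a thresholded list that keeps peaks passing an irreproducible discovery rate (IDR) threshold over them. Which aligner and which peak caller were used is not given in the sources used here. Read depth is unknown, and the scale of the signal differs between lists.

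A gene had a peak where 1 bp or more overlapped. Its strongest peak gave signal, rank and summit. Promoter letters were searched in 150 bp upstream, on both strands unless stated. A 32-base word counted as unique if it occurred once in the genome on either strand, over the gene with 200 bp on each side. The scripts were tested on simulated data and used Python 3.11.15, NumPy 2.4.6, pandas 2.3.3, Biopython 1.88 and Matplotlib 3.10.9. No test was run, since there is 1 group.

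The members and lists were chosen with earlier results of these data known. By rule, every member with a peak is named, the 10 strongest with full values, and of the others the 5 with the highest pooled signal, plus the core protein genes and rpc-1. Genes that hold the spaced letters, and pairs of at least 80% identity, were named after their values were seen. Alternatives were the summit within 100 bp, 50% cover, 200 bp more upstream, the 660 strongest peaks, each replicate's 1320 strongest regions, isolated genes and other box windows. The ce10 lists and the control were not used here.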

Additional observations from a re-analysis of the deposited data

How the results depend on the processing

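The count of 27 occupied members ran from 23 to 28 over its alternatives. It was 23 among the 660 strongest peaks, 25 with the summit within 100 bp, 28 with 200 bp more upstream and 24 without members near a tRNA gene or tRNA pseudogene, a setting chosen after seeing the data. Leaving out 1 replicate gave 25 to 26. Without replicate 1 C16D9.10 was lost, and without replicate 2 Y59E1B.14, T09B9.10, M163.14 and K09E9.5 were lost and Y53F4B.47 and F09G2.14 gained. The median summit ran from -33 to -30 bp. The median rank of 85 ran from 67 to 91.5 in single replicates.

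The box counts depended on the letters searched. The B box count among occupied genes was 7 with the full letters, 17 with 1 mismatch, 13 with the core and, in settings chosen after seeing the data, 13 with the first letters when the first 20 bases of the gene were added. The A box count rose from 8 to 14 when 11 bases were also accepted, likewise chosen after seeing the data. The count of members without a peak that held the spaced letters was 11 within 150 bp and 12 within 300 bp, a window added after seeing the data. The TATA count went from 5 to 9 on both strands and was 3 without replicate 2 and 5 without replicate 1. For the B box count with 1 mismatch, members without a peak held 10 of 106.

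No paired analysis was possible because there is 1 group only. The lists give no read depth, so a gene without a peak is not shown to lack the polymerase.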

Other observations

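Most occupied members carry low WormBase gene numbers, a division noticed after the values were seen. Of the 36 members with a number up to 200000, 24 had a thresholded peak, and of the 97 with a higher number, 3 had one. Those 3 were C33E10.11, Y59E1B.14 and T09B9.10, with signals of 105, 44.9 and 35.8. Among the 36 genes with a low number, A box letters of 11 or 12 bases were found in 13 of the 24 with a peak and 0 of the 12 without. Not every contrast held in this division. Most of the 24 and most of the 12 held the D box letters, and the higher upstream GC content of occupied genes was not seen. The 12 also include F25H2.15, F43A11.8, F47G4.9, F59C6.15, T26A8.6, Y67A10A.14 and Y74C9A.6, which hold the spaced letters.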
